A study of Mus musculus with 12 samples.

Results

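The cytosolic ribosomal proteins were taken as all genes of the expression table whose symbol starts with Rpl or Rps followed by a number and at most a closing a, x or l, together with Rplp0, Rplp1, Rplp2 and Rpsa, and with no symbol of a named pseudogene. This gave 83 of 36008 genes, 51 for the large subunit and 32 for the small subunit. Rpl22l1, Rpl7l1, Rpl36al, Rps27rt, Fau and Rack1, among others, encode or resemble proteins of the same ribosome but have symbols that fall outside this definition, and they are given apart as a list of 7. Rps3a1 also falls outside it and is in neither set. Libraries were made from 2 leg muscles, gastrocnemius and quadriceps, of 6 female mice aged 30 weeks when the mission began, 3 of them housed for 9 weeks on the International Space Station (flight) and 3 kept in matched hardware at the Kennedy Space Center (ground). The ground mice were M02, M03 and M08, the flight mice were M11, M12 and M20, and each gave both muscles, so that 12 libraries fell into 4 groups of 3. All of these mice had received repeated subcutaneous injections of phosphate-buffered saline, and the carcasses were frozen and later thawed before the muscles were dissected. The strain is BALB/c in the publication and C57BL/6 in the sample labels, and it entered no comparison. Flight here joins microgravity, radiation, launch, the habitat, and euthanasia on board with later return of the samples to Earth. These cannot be told apart with these groups.

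A ribosome is built from a large and a small subunit, each a core of ribosomal RNA surrounded by ribosomal proteins. The small subunit holds the messenger RNA and reads its codons, and the large subunit joins amino acids and carries the tunnel through which the new protein leaves. Genes for these proteins are expressed in every cell type, their messenger RNAs are short and abundant, and many of them begin with a run of pyrimidines through which the growth kinase mTORC1 controls their translation. The mouse genome also holds many processed pseudogenes of them, copies of the spliced messenger RNA pasted back into the genome, and short reads from such a copy and from its parent can be hard to tell apart.

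Values are TPM (transcripts per unit of total expression), which scale a library to a fixed total and correct for transcript length, so that levels can be compared between genes but carry no counting depth. The genes listed did not reach 1 common sum. They summed to 923295 to 924762 TPM in the ground and 937534 to 946314 TPM in the flight gastrocnemius. In the quadriceps they summed to 952229 to 961683 TPM on the ground and 964792 to 966638 TPM in flight. Across genes on the log2 scale, any pair of libraries from 1 group had r of 0.95 to 0.981. Actin, myosin and other muscle fiber genes summed to 111949 to 121081 TPM in the gastrocnemius and 143918 to 161370 TPM in the quadriceps, while a list of lymphocyte genes summed to 3.56 to 6.35 TPM in any library. The messenger RNAs of the mitochondrial genome summed to 154236 to 176225 TPM in the ground gastrocnemius and 202645 to 220355 TPM in the flight gastrocnemius, without overlap. In the quadriceps these sums were 159658 to 184829 TPM on the ground and 166411 to 193419 TPM in flight, with overlap. In whole muscle, fewer cells of a type and less RNA per cell cannot be told apart.

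Of the 83 genes, 79 had over 5 TPM in at least 1 library and were tested, 48 of the large and 31 of the small subunit. The other 4 were the copies Rpl10l, listed at 0 in all 12 libraries, Rpl32l, with 0 to 0.503 TPM, Rpl39l, with 0 to 0.747 TPM, and Rps4l, with 1.41 to 4.27 TPM. Rps4l stood beside 135 to 220 TPM for Rps4x, Rpl39l beside 37.3 to 107 TPM for Rpl39, and Rpl10 itself was listed at only 7.8 to 23.7 TPM. Mean levels over the 12 libraries were above 100 TPM for 58 genes. The highest was Rps24 with 599 TPM, and Rpl28 with 424 TPM and Rpl31 with 380 TPM were among the 5 highest. The 5 lowest of the tested genes were Rpl6l with 4.73 TPM, Rps2 with 5.29 TPM, Rpl12 with 6.15 TPM, Rpl21 with 8.98 TPM and Rpl35 with 9.39 TPM, a set that includes core proteins of the ribosome.

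Together the 83 genes made up 13306, 14605 and 13539 TPM in the ground gastrocnemius of M02, M03 and M08 and 12766, 10938 and 10736 TPM in the flight gastrocnemius of M11, M12 and M20. In the quadriceps the sums were 18561, 17995 and 17264 TPM on the ground and 15327, 14298 and 15501 TPM in flight. Flight and ground did not overlap in either muscle, and M11 was the flight gastrocnemius nearest to the ground libraries. The group means were 13817 ± 692 TPM (SD, n = 3) on the ground and 11480 ± 1118 TPM in flight for the gastrocnemius, 16.9% lower, and 17940 ± 651 TPM and 15042 ± 650 TPM for the quadriceps, 16.2% lower. With 3 mice against 3, an exact permutation test of such a sum cannot reach significance, and none is given for a sum over chosen genes. The quadriceps held 1.30 times the sum of the gastrocnemius on the ground and 1.31 times in flight. Large subunit genes took 57.1% to 59.7% of the sum in every library, so the split between the subunits hardly moved.

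**Figure D1:**
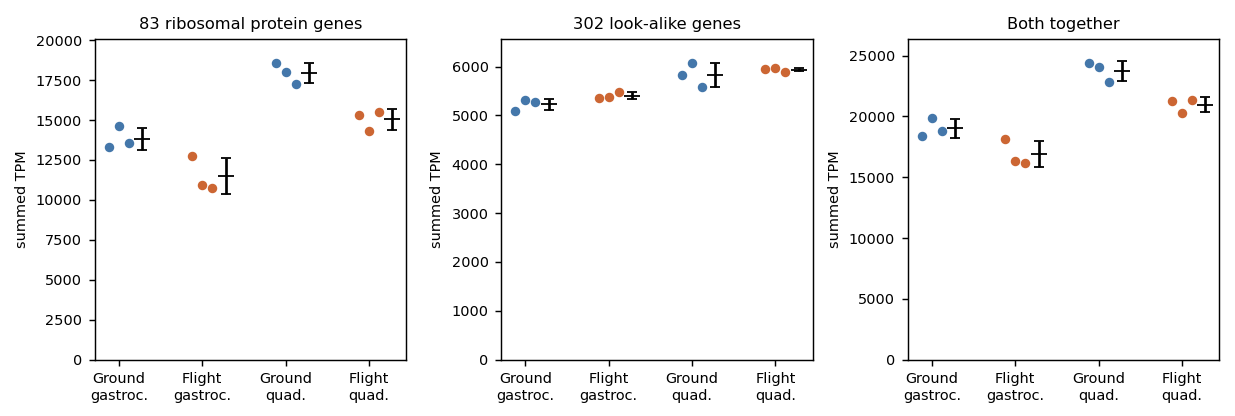
Summed TPM of the 83 ribosomal protein genes (left), of the 302 genes whose sequence resembles them (middle) and of both (right) in each library (points, blue ground and orange flight), with the mean and SD of each group of 3 (bars). The ribosomal protein sums of the flight libraries lie below those of the ground libraries in both muscles, and the sums of the look-alike genes do not.

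The genes differed widely in their spread over the 12 libraries. The coefficient of variation (SD over mean) was smallest for Rpsa, the laminin receptor precursor of the small subunit, with 5.6% and 341 to 401 TPM. Rpl3l with 7.6%, Rplp0 with 8.81% and Rpl4 with 9.41% were among the next. It was largest for Rps13 with 46.8%, Rpl27 with 42.2%, Rps27a with 39.6%, Rpl10 with 39.6% and Rpl26 with 39.4%, among the 78 genes with a mean above 5 TPM. Over these 78 the median was 22.0%, and it was 20.1% for those above 100 TPM against 14.7% for all 744 genes of the table above 100 TPM. The map of single libraries shows most of the genes moving together.

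**Figure D2:**
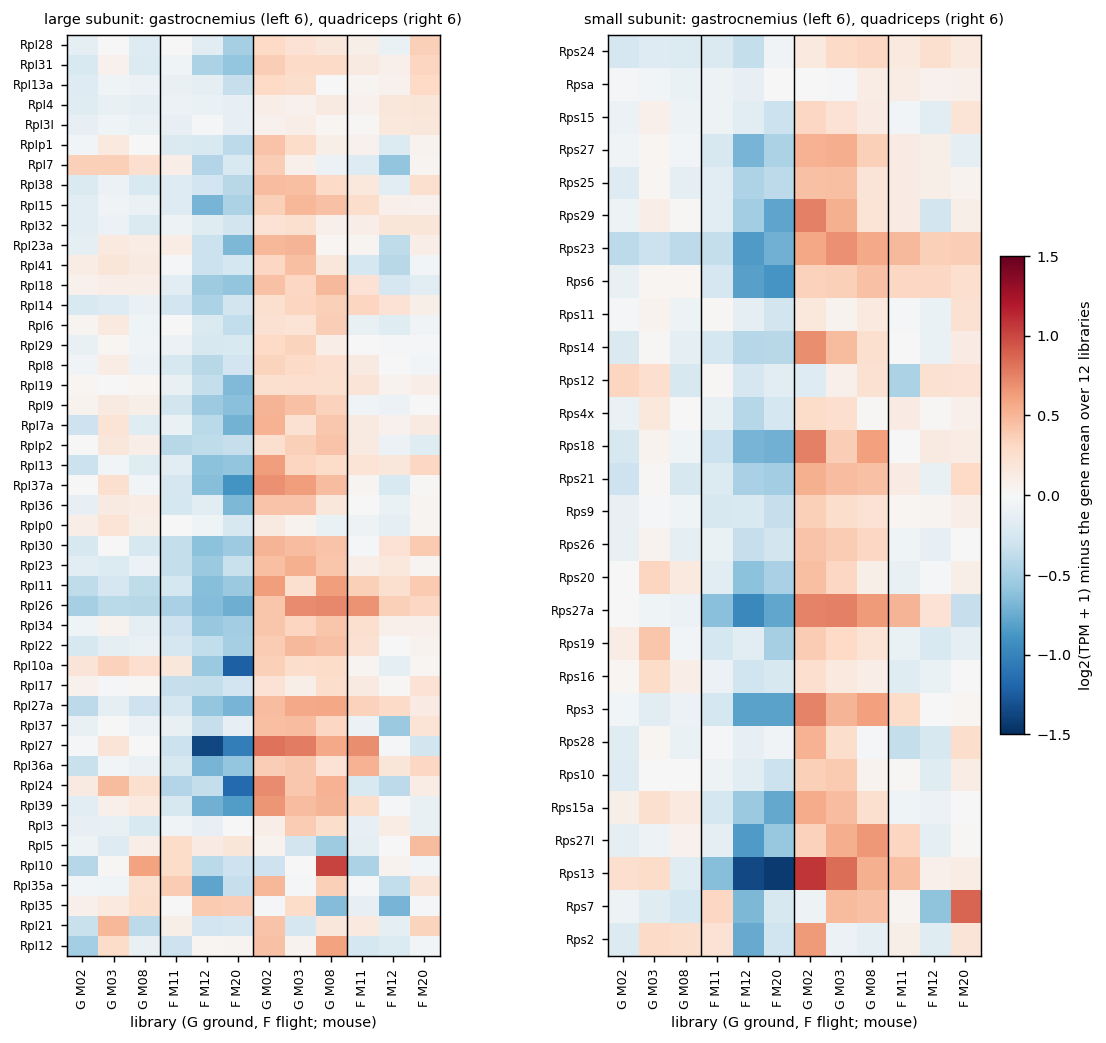
Level of ribosomal protein genes with a mean above 5 TPM in each library, as log2(TPM + 1) minus the mean of that gene over the 12 libraries (red higher, blue lower), for genes of the large (left) and small (right) subunit sorted by mean TPM. Most rows are blue in the flight gastrocnemius and red in the ground quadriceps, and the deepest blue lies in the flight gastrocnemius of M12 and M20.

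In the gastrocnemius, ribosomal protein genes of both subunits were mostly lower in flight, by a small amount each. The median log2 fold change (flight minus ground, on log2(TPM + 1)) was -0.27 over the 79 tested genes, against 0.02 over all 10481 genes tested. Of the 79, 71 were lower, 42 of the 48 large and 29 of the 31 small subunit genes. By limma, 39 were lower at an unadjusted p under 0.05, which 6.55% of all tested genes were, and 1 was higher, which 8.52% were. In 38 genes all 3 flight libraries lay below all 3 ground libraries, which held for 8.55% of all tested genes, and in 1 gene, Rpl5, all lay above, which held for 12.5%. After the Benjamini-Hochberg adjustment over all genes, only Rps27a passed both the threshold of 0.05 and a change of over 1.5-fold, where 0.229% of all genes passed. Messenger RNAs of the mitochondrial genome were higher in the same flight libraries, and their part in these values was not tested.

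Rps27a encodes a ubiquitin joined to a small subunit protein and lies at chr11:29545846-29548109 on the minus strand (GRCm38). It had 138, 132 and 129 TPM in the ground gastrocnemius and 89.1, 70.2 and 80.04 TPM in the flight gastrocnemius, a log2 fold change of -0.74 (SE 0.099, limma adjusted p = 0.0446). All 3 flight values lay below all ground values. Its quadriceps values were 232.6, 234.6 and 216 TPM on the ground and 197, 161 and 108 TPM in flight, again with no overlap, and a log2 fold change of -0.59 (SE 0.20, limma adjusted p = 0.397). The call in the gastrocnemius was lost in 5 of the 6 fits that left out a library and stood without M11.

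The genes next in order in the gastrocnemius did not pass the adjusted threshold. Rplp2, 1 of the acidic proteins of the stalk that recruits translation factors, had 209.9, 234.6 and 223 TPM on the ground and 156, 160 and 164 TPM in flight, a log2 fold change of -0.47 (SE 0.073, limma adjusted p = 0.0774). Its flight values were close to each other and well apart from the ground values. Rps13 had 69.2, 70.0 and 50.9 TPM on the ground and 36.9, 22.1 and 20.8 TPM in flight, a log2 fold change of -1.25 (SE 0.22, limma adjusted p = 0.103), the lowest of all 79. Rps15a had 73.5, 81.7 and 76.8 TPM on the ground and 57.4, 46.8 and 40.4 TPM in flight, a log2 fold change of -0.68 (SE 0.13, limma adjusted p = 0.107). In both Rps13 and Rps15a the flight library nearest to the ground was that of M11. Rpl18, Rps20 and Rpl17 had log2 fold changes of -0.51, -0.58 and -0.34, also without overlap and with limma adjusted p of 0.146, 0.149 and 0.127. Without M11, 16 of the 79 genes passed by limma, where 133 of all 10481 genes did, against 24 with no library left out. Without any other single library none of the 79 passed, and 1 to 8 of all genes did. In those other fits 28 to 38 of the 79 genes were lower at an unadjusted p under 0.05, where 9.19% to 12.5% of all genes stood in either direction.

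In the quadriceps the direction was the same and the adjusted threshold was not reached by any of them. The median log2 fold change was -0.28 over the 79 genes, against 0.01 over all genes. Of the 79, 73 were lower, 43 large and 30 small subunit genes. At an unadjusted p under 0.05, 45 were lower by limma, where 5.18% of all genes were, and none was higher, where 5.66% were. All 3 flight libraries lay below all 3 ground libraries in 44 genes, against 8.12% of all tested genes, and above in none, against 9.24%. No ribosomal protein gene passed the adjusted threshold by limma, where 0.0286% of all genes did, and the smallest adjusted p was 0.224. Adipocyte genes were also lower in the flight quadriceps, with a median log2 fold change of -1.07, and their part in these values was not tested.

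The lowest p in the quadriceps belonged to Rpl9, with 313, 297 and 278 TPM on the ground and 211, 206 and 220 TPM in flight, a log2 fold change of -0.48 (SE 0.068, limma adjusted p = 0.224). In the gastrocnemius it had 227, 241 and 232 TPM on the ground and 180, 150 and 141 TPM in flight, a log2 fold change of -0.57 (SE 0.10, limma adjusted p = 0.103). The groups were apart in both muscles by more than their own width. Rps26, a small subunit protein at the channel where the messenger RNA leaves, had 203, 197 and 187 TPM on the ground and 144, 138 and 152 TPM in flight in the quadriceps, a log2 fold change of -0.43 (SE 0.068). In the gastrocnemius its values of 139, 157 and 136 TPM on the ground and 141, 118 and 125 TPM in flight overlapped. Rps19, which is mutated in some patients with Diamond-Blackfan anemia, had 158, 149 and 140 TPM on the ground and 113, 103 and 110 TPM in flight in the quadriceps, a log2 fold change of -0.45 (SE 0.075). Rps3, a small subunit protein at the entry of the messenger RNA, had 167, 142 and 153 TPM on the ground and 121, 99.0 and 101 TPM in flight in the quadriceps, a log2 fold change of -0.52 (SE 0.10). Neither Rps19 nor Rps3 overlapped between flight and ground in this muscle. In the gastrocnemius Rps3 had 96.8, 89.2 and 93.2 TPM on the ground and 82.5, 56.8 and 56.6 TPM in flight, also without overlap. Rpl23, Rpl6 and Rps27 had log2 fold changes of -0.37, -0.38 and -0.46 in the quadriceps, each without overlap and with limma adjusted p of 0.272, 0.274 and 0.285.

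The proteins of the stalk can be compared with each other. Rplp0, which anchors the stalk, had 159, 171 and 157 TPM in the ground gastrocnemius and 147, 142 and 125 TPM in flight, and 162, 153 and 138 TPM against 140.1, 135 and 153 TPM in the quadriceps, where the groups overlapped. Rplp1, the partner of Rplp2, had 283, 322 and 291 TPM against 250.1, 248 and 221 TPM in the gastrocnemius and 390.5, 351 and 309 TPM against 303, 252 and 302 TPM in the quadriceps, without overlap. Log2 fold changes in the gastrocnemius and quadriceps were -0.24 and -0.08 for Rplp0, -0.32 and -0.29 for Rplp1 and -0.47 and -0.39 for Rplp2, none past the adjusted threshold by limma. Some genes of both subunits were level between flight and ground. Rpsa had 366, 359 and 345 TPM in the ground gastrocnemius and 350.2, 341 and 372 TPM in flight, a log2 fold change of -0.01 (SE 0.070), and 0.06 (SE 0.063) in the quadriceps. Rpl4, a large subunit protein that lines the exit tunnel, had 0.04 (SE 0.064) and 0.04 (SE 0.062). Rps24, the most abundant of all, had 497, 516 and 513 TPM in the ground gastrocnemius against 509, 463 and 571 TPM in flight, and 653, 719.8 and 737 TPM against 656, 697 and 654 TPM in the quadriceps, with log2 fold changes of 0.01 (SE 0.088) and -0.07 (SE 0.070). In all 3 of these genes flight and ground overlapped in the gastrocnemius.

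In 32 of the 79 genes the 3 flight libraries lay below the 3 ground libraries in both muscles, which held for 2.94% of all tested genes, and in none did they lie above in both, which held for 3.06%. Both muscles came from the same mice, so these are not independent observations. For the large subunit they were Rpl8, Rpl9, Rpl10a, Rpl15, Rpl18, Rpl19, Rpl22, Rpl23, Rpl24, Rpl30, Rpl34, Rpl36, Rpl37a, Rpl39, Rpl41, Rplp1 and Rplp2. For the small subunit they included Rps3, Rps6, Rps9, Rps13, Rps14, Rps15a, Rps16, Rps18, Rps19, Rps20, Rps27, Rps27a, Rps27l and Rps29. Their log2 fold changes ran from -1.25 for Rps13 to -0.21 for Rps9 in the gastrocnemius and from -0.71 for Rpl24 to -0.09 for Rps6 in the quadriceps.

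With the mean of both muscles taken for each mouse, so that 3 flown mice were compared with 3 ground mice, the median log2 fold change was -0.28 and 74 of the 79 genes were lower. At an unadjusted p under 0.05, 52 were lower by limma, where 8.06% of all genes were, and 1, Rpl5 with 0.31, was higher, where 9.94% were. An adjusted p under 0.05 was reached by 3 genes, where 0.162% of all genes reached it, and 1 of them, Rpl24, also changed by over 1.5-fold, where 0.124% of all genes did. Rpl24, a protein of the large subunit that reaches across to the small subunit, fell with a log2 fold change of -0.83 (SE 0.071, limma adjusted p = 0.0124). Rpl9 had -0.53 (SE 0.064) and Rps18 had -0.49 (SE 0.063), both with a limma adjusted p of 0.0458. Rps18 had 144, 177 and 163 TPM in the ground gastrocnemius, 136, 104 and 103 TPM in flight, 287, 219 and 261 TPM in the ground quadriceps and 171, 186 and 184 TPM in flight, with no overlap in either muscle. Without M11, 13 of the 79 genes passed both thresholds by limma, where 134 of all genes did, against 13 of all genes with no mouse left out. Without M08 1 of the 79 and 7 of all genes passed, and without any other mouse none of the 79 did. Rps15a, Rplp2 and Rpl37a came next, with log2 fold changes of -0.58, -0.43 and -0.65 and limma adjusted p of 0.0504, 0.0504 and 0.0569. Rps20, Rpl23 and Rpl41, which encodes the smallest protein of the ribosome, had -0.44, -0.31 and -0.45, with limma adjusted p of 0.0643 to 0.0658.

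Rpl24 lies at chr16:55966275-55971435 on the plus strand (GRCm38). Its levels were 77.8, 98.6 and 83.5 TPM in the ground gastrocnemius and 51.8, 55.1 and 30.9 TPM in flight, a log2 fold change of -0.94 (SE 0.21, limma adjusted p = 0.142). The quadriceps had 116, 93.7 and 102 TPM on the ground and 60.4, 53.8 and 76.4 TPM in flight, a log2 fold change of -0.71 (SE 0.14, limma adjusted p = 0.274). Flight and ground were apart in both muscles. Rpl37a, a zinc-binding protein of the large subunit at chr1:72711290-72713813 on the plus strand (GRCm38), had 185, 220 and 180 TPM in the ground gastrocnemius and 156, 119 and 99.2 TPM in flight, a log2 fold change of -0.66 (SE 0.16, limma adjusted p = 0.166). Its quadriceps values were 298, 287 and 255 TPM on the ground and 191, 158 and 188 TPM in flight, a log2 fold change of -0.65 (SE 0.10, limma adjusted p = 0.224). It too did not overlap in either muscle, and its change was of like size in both.

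These single values rest on how reads were shared between near-identical sequences. In the annotated transcripts (GENCODE vM21, GRCm38), 302 genes outside the 83 had at least 50% of their stretches of 31 bases in a ribosomal protein gene, 108 of them named as pseudogenes of it by symbol, and they are called look-alike genes here. They belonged to 67 of the 83 genes. A median of 23.4% of the stretches of a ribosomal protein gene were found in other genes, with a range of 0 to 94.1%. Rpl24 has 2 look-alike genes with appreciable values, both annotated as processed pseudogenes. Gm9385 lies at chr9:116040593-116041064 on the minus strand and has 93.0% of its 31-base stretches in Rpl24, and Gm12254 lies at chr11:58508791-58509261 on the minus strand and has 76.4%. To show how little separates such genes, the same 30 bases of the coding sequence are printed here for Rpl24, from base 415 of its coding sequence, and for its copies, with capitals at the bases where any of them differ.
Rpl24: aaacaaaagattgtgaagCctgtgaagGtC
Gm9385: aaacaaaagattgtgaagCctgtgaagGtC
Gm12254: aaacaaaagattgtgaagTctgtgaagAtT
Counted from 1 at the 5′ end of the stretch, Gm9385 has no substitution against Rpl24 and Gm12254 has C19T, G28A and C30T.

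Gm9385 had 145, 157 and 168 TPM in the ground gastrocnemius and 159, 143 and 140 TPM in flight, more than Rpl24 itself, and 198, 204 and 178 TPM against 174, 143 and 162 TPM in the quadriceps. Gm12254 had 3.62, 9.0 and 4.88 TPM in the ground gastrocnemius and 47.2, 25.5 and 56.9 TPM in flight. In the quadriceps Gm12254 had 11.8, 33.7 and 12.1 TPM on the ground and 40.7, 46.4 and 44.1 TPM in flight. Gm12254 was thus higher in every flight library than in any ground library of the same muscle, the reverse of Rpl24. With the TPM of both copies added to Rpl24 before the log, its log2 fold change was -0.08 (SE 0.092) in the gastrocnemius, -0.25 (SE 0.085) in the quadriceps and -0.16 (SE 0.069, limma adjusted p = 0.275) for the mean of both. Its adjusted p over all settings tried ran from 0.00909 to 0.275. This addition was chosen after the values were seen.

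Rpl37a and Rps27a each have a look-alike gene with appreciable values, Gm4149 at chr13:75644896-75645171 on the plus strand and Gm8430 at chr6:122456904-122457374 on the plus strand, both processed pseudogenes. In the stretches printed, which start at base 169 of the Rpl37a and base 42 of the Rps27a coding sequence, a single base differs, shown in capitals.
Rpl37a: tgtggttcctgcatgaaaacagtggccggT
Gm4149: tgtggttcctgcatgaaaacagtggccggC
Rps27a: gctcgaggttgaaccctcggacactatagA
Gm8430: gctcgaggttgaaccctcggacactatagG
Gm4149 has T30C and Gm8430 has A30G against the parent gene, counted as before. Gm4149 had 33.2, 13.4 and 22.3 TPM in the ground gastrocnemius and 56.5, 48.7 and 47.7 TPM in flight, and 21.6, 69.6 and 44.3 TPM against 111, 105 and 79.9 TPM in the quadriceps, higher in flight without overlap. Gm8430 had 24.2, 57.4 and 42.8 TPM in the ground gastrocnemius and 71.7, 76.9 and 65.5 TPM in flight. The quadriceps listed it at 25.2, 0 and 0 TPM on the ground and at 3.60, 31.2 and 123 TPM in flight, which overlapped, and the highest of these was in M20, where Rps27a was lowest of the quadriceps libraries. With look-alike genes added, Rpl37a had log2 fold changes of -0.33 (SE 0.13) and -0.22 (SE 0.090) and Rps27a had -0.21 (SE 0.084) and -0.18 (SE 0.098) in the gastrocnemius and quadriceps, and the call of Rps27a was lost (limma adjusted p = 0.312, range over all its settings 0.0175 to 0.312).

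**Figure D3:**
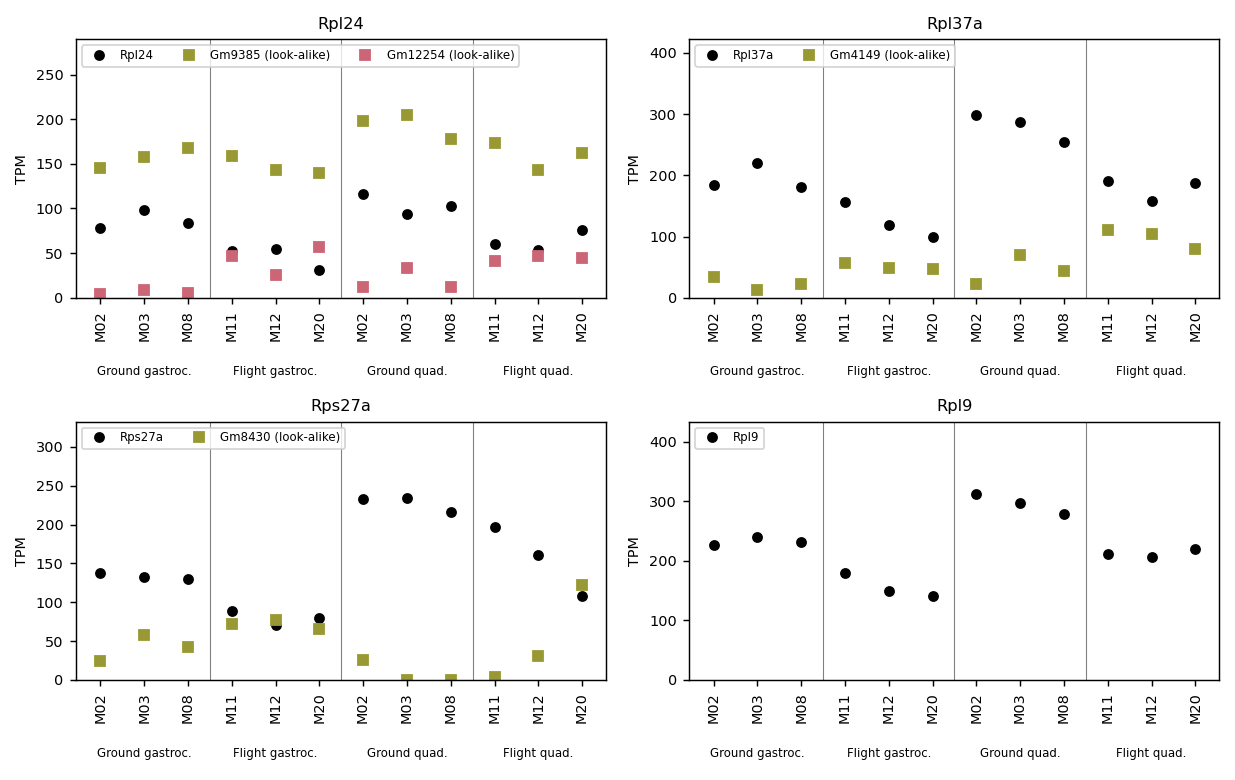
TPM of Rpl24, Rpl37a, Rps27a and Rpl9 (black circles) and of their look-alike genes (coloured squares) in each library, with vertical lines between the groups of 3 mice. Gm12254 and Gm4149 are higher in all flight libraries than in the ground libraries of the same muscle while Rpl24 and Rpl37a are lower, and Rpl9 is lower in flight with only 0.212 TPM of look-alike genes on average.

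Other genes also moved with or against their copies. For 16 genes the look-alike genes held more TPM than the gene itself. Rps2, a core protein of the small subunit, was listed at 5.29 TPM beside 507 TPM for Rps2-ps10, and Rpl12, of the base of the stalk, at 6.15 TPM beside 487 TPM for Gm10275. Rps6, the classical substrate of S6 kinase, had 204, 225 and 225 TPM in the ground gastrocnemius and 186, 125 and 119 TPM in flight, and its copy Rps6-ps4, which holds no 31-base stretch that Rps6 lacks, had 12.2, 0.0001 and 0 TPM against 34.6, 94.3 and 119 TPM. The log2 fold change of Rps6 was -0.63 alone and 0.02 with its look-alike genes. Rps13 went from -1.25 to -0.61 in the gastrocnemius and from -0.60 to -0.33 in the quadriceps, and Rpl10a from -0.80 to -0.26 in the gastrocnemius. For Rpl23 the sign turned, from -0.26 to 0.16 in the gastrocnemius and from -0.37 to 0.02 in the quadriceps, with Gm9794 at 115 to 130 TPM in the ground and 155 to 179 TPM in the flight gastrocnemius. Rpl5, the partner of 5S ribosomal RNA and the only gene that was higher without overlap in the gastrocnemius, with 25.9, 23.8 and 29.5 TPM on the ground and 33.5, 29.98 and 31.3 TPM in flight, went from 0.26 to -0.15.

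Taken alone, the set of 37 genes with little TPM in look-alike genes had medians close to those of all 79. For 37 of the tested genes the look-alike genes held under 5% of the TPM of the gene, and their median log2 fold change was -0.28 in the gastrocnemius, with 34 lower and 20 lower at an unadjusted p under 0.05, and -0.29 in the quadriceps, with 33 lower and 23 at that p, by limma. Adding the look-alike genes moved these 37 as well, to -0.22 in the gastrocnemius, and left them at -0.29 in the quadriceps. For the 12 tested genes with no look-alike gene the medians were -0.19 and -0.28. The first of these lay nearer to the gastrocnemius median of all 79 with look-alike genes added, -0.17, than to that without, -0.27. These 12 genes still had from 0% (Rpl3l) to 84.4% (Rpl6l) of their 31-base stretches in other genes. They are therefore not a set free of shared sequence. For the other 42 genes the medians were -0.27 and -0.27 alone and -0.15 and -0.14 with look-alike genes added. Rplp2 has no look-alike gene, those of Rpl9 held 0.212 TPM, and the log2 fold changes of Rpl9 stayed at -0.57 and -0.48. Over all 79 genes with look-alike genes added, 71 were lower in the gastrocnemius with a median of -0.17 and 71 in the quadriceps with a median of -0.20, and 34 and 38 were lower at an unadjusted p under 0.05 by limma. Flight lay below ground without overlap in 34 genes in the gastrocnemius (8.44% of all genes), 41 in the quadriceps (8.07%) and 24 in both (2.85%), and above in 1, Rpl23, in the gastrocnemius (12.4%), in none in the quadriceps (9.23%) and in none in both (3.05%). The sum over the 83 genes and the 302 look-alike genes was 18395 to 19916 TPM in the ground and 16217 to 18116 TPM in the flight gastrocnemius, 11.3% lower by the means. In the quadriceps it was 22850 to 24387 TPM on the ground and 20268 to 21398 TPM in flight, 11.7% lower. Neither muscle overlapped, while the look-alike genes alone summed to 5089 to 5312 and 5349 to 5480 TPM in the gastrocnemius, which was higher in flight, and 5586 to 6070 and 5896 to 5970 TPM in the quadriceps.

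**Figure D4:**
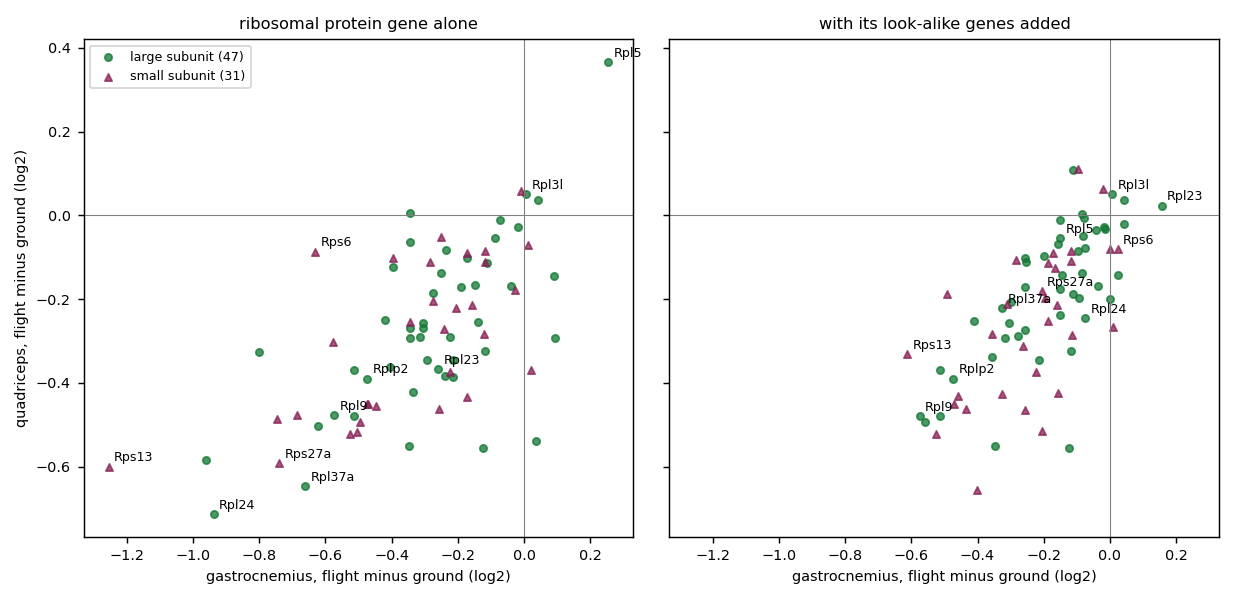
Log2 fold change (flight minus ground) in the quadriceps against that in the gastrocnemius for the tested ribosomal protein genes with a mean above 5 TPM, 47 of the large (circles) and 31 of the small subunit (triangles), alone (left) and with the TPM of their look-alike genes added (right). Most points lie to the lower left of the origin in both panels, and Rps13, Rpl24, Rps27a, Rpl37a and Rps6 move towards 0 on the right while Rpl9 and Rplp2 stay.

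Whether flight and ground differed by more in 1 muscle than in the other was tested with an interaction term and mouse as a block. No gene passed the adjusted threshold by limma, where 0.0% of all genes did, and 8 of the 79 had an unadjusted p under 0.05, where 5.09% of all genes had one. For Rps13 the flight effect was 0.65 higher in the quadriceps on the log2 scale (SE 0.15, limma adjusted p = 0.787), and for Rps6 it was 0.54 higher (SE 0.16, limma adjusted p = 0.939). Rps6 had 281, 282 and 299 TPM in the ground quadriceps and 274, 275 and 263 TPM in flight, and with its look-alike genes added its interaction was -0.10, while that of Rps13 became 0.28 (SE 0.12). The others were Rpl36a with 0.35, Rpl17 with 0.28, Rpl3 with -0.39, Rpl37 with -0.43, Rps26 with -0.26 and Rpl6l with 2.11, the last at only 0 to 14.4 TPM.

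Levels in the quadriceps were above those in the gastrocnemius for most of the genes. The median log2 difference (quadriceps minus gastrocnemius, mouse as a block) was 0.34 over the 79 genes, of which 74 were higher, against 0.11 over all genes tested. An adjusted p under 0.05 was reached by 51, where 30.5% of all genes reached it, and 14 also passed 1.5-fold, all of them higher, where 3.36% of all genes passed and 2.19% passed in that direction. Rescaling each library by its median ratio to the average library moved the median of all genes to -0.003 and that of the ribosomal protein genes to 0.22, with 9 called, and turned 230 higher of 352 called genes in the whole table into 102 of 293. The largest differences were those of Rpl26, Rps13, Rps23, Rpl27 and Rps27a. Rpl26, at the exit of the protein tunnel, had 82.99, 88.6 and 88.2 TPM in the ground gastrocnemius and 157, 193 and 194 TPM in the ground quadriceps, with 83.3, 74.3 and 70.3 TPM against 188, 151 and 146 TPM in flight, a log2 difference of 1.06 (SE 0.051, limma adjusted p = 2.68e-05). Rps23, of the decoding centre, had 195, 205 and 196 TPM against 383, 412 and 380 TPM on the ground and 199, 142 and 156 TPM against 360, 329 and 332 TPM in flight, a log2 difference of 1.01 (SE 0.055, limma adjusted p = 4.53e-05). Every quadriceps value of Rpl26 and Rps23 lay above every gastrocnemius value, which was not so for Rpl27. Rps13, Rpl27 and Rps27a had log2 differences of 1.02, 0.85 and 0.84, and the other 9 called genes included Rpl11, Rpl27a, Rps3, Rps6, Rpl30, Rpl36a, Rps18 and Rpl13, with 0.82 for Rpl11 to 0.64 for Rpl13. With look-alike genes added, 13 of the 14 calls were lost. The log2 differences became 0.34 for Rpl26, 0.56 for Rps23, 0.29 for Rps13, 0.30 for Rpl27 and 0.44 for Rps27a, all under 1.5-fold. Rps3, at 0.72 both ways, stayed called. Rps7 with 0.77 and Rpl37a with 0.63 were called only with their look-alike genes. In this fit 3 of the 79 genes were called, a share near that of all genes, 334 of 10404.

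Rpl3l, a copy of Rpl3 expressed mainly in heart and skeletal muscle, was listed at 273 to 336 TPM, and Rpl3, which other tissues use, at 30.1 to 46.4 TPM. The ratio of Rpl3l to Rpl3 was 8.81 ± 0.42 in the ground and 8.29 ± 0.67 in the flight gastrocnemius (SD, n = 3), which overlapped. In the quadriceps it was 7.39 ± 0.69 on the ground, with 6.88 to 8.18, and 9.43 ± 0.82 in flight, with 8.68 to 10.3, which did not overlap. The log2 fold change in the quadriceps was 0.05 for Rpl3l (SE 0.067) and -0.29 for Rpl3 (SE 0.11, limma adjusted p = 0.426), with 38.0, 46.4 and 42.8 TPM of Rpl3 on the ground and 32.4, 38.2 and 32.6 TPM in flight, which overlapped in 1 mouse of each group. Rpl3 has look-alike genes, and with their TPM added to it the ratio was 4.88 ± 0.16 and 4.91 ± 0.15 in the ground and flight gastrocnemius and 4.75 ± 0.051 and 5.68 ± 0.47 in the quadriceps (SD, n = 3), where the groups again did not overlap. Rps27l, a copy of Rps27, stood at 0.202 to 0.219 of Rps27 by the group means, with overlap between flight and ground, and both genes were lower in flight without overlap in both muscles.

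The deposited splicing tables listed 6 events per muscle in 2 of the 83 genes, Rps24 and Rps27l. None was called by limma in either muscle, where 0.378% of the 2118 kept gastrocnemius events and 0.0% of the 2035 kept quadriceps events were, and 1 of the 11 kept events in these genes had an unadjusted p under 0.05, which 9.49% and 7.86% of all kept events had. Rps24 ends in alternative forms that differ by short exons, and the exon of 18 bases at chr14:24494052-24494069 on the plus strand (GRCm38) is coding in the 1 annotated transcript that holds it, of 12 transcripts of Rps24. It is printed whole, in capitals, because the values that follow measure its use.
Rps24 exon: AAATGAAATACCTAGCAG
Its inclusion (PSI, percent spliced in) was scored by junction reads between the exon before it and the downstream exon starting at base 24495430. It is therefore not a share of all Rps24 transcripts. PSI was 78.4%, 83.1% and 82.0% in the ground gastrocnemius and 82.3%, 80.9% and 80.9% in flight, on 393 to 509 junction reads per sample, with overlap and a difference of 0.19 percentage points (limma adjusted p = 0.984). In the quadriceps its inclusion was 85.7%, 82.5% and 90.2% on the ground and 78.7%, 77.5% and 82.1% in flight, on 300 to 655 reads. These quadriceps values did not overlap, and the difference of -6.71 points did not pass the test (limma adjusted p = 0.662). The event with the unadjusted p under 0.05 was the choice between this exon and the next one of 20 bases, scored with a downstream exon starting at base 24495775. The first exon had 0%, 1.94% and 0% on the ground and 1.49%, 4.23% and 6.42% in flight in the gastrocnemius (limma adjusted p = 0.433), on 53 to 80 reads. Because the flanking exons differ, these percentages and the PSI given above are not on the same scale. The 3 events in Rps27l overlap and share reads, and their inclusion was 0 to 11.5%.

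**Figure D5:**
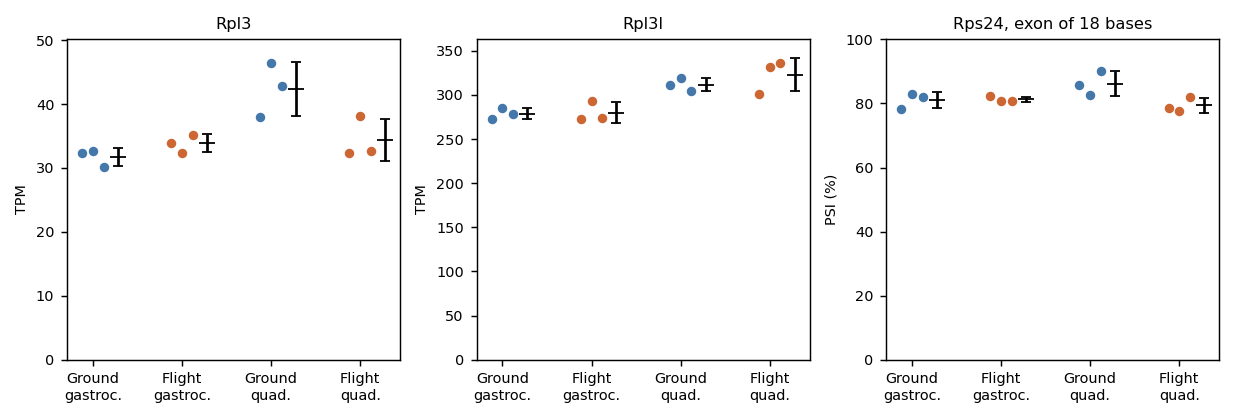
TPM of Rpl3 (left) and of its muscle copy Rpl3l (middle), and percent inclusion of the 18-base exon of Rps24 (right), for each sample (points, blue ground and orange flight) with the mean and SD of each group of 3 (bars). Rpl3l is nearly level between flight and ground, Rpl3 has a lower mean in flight in the quadriceps with 1 flight value inside the ground range, and the inclusion of the exon is 6.71 points lower there.

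Windows around annotated starts of transcription were searched for runs of pyrimidines, because such a run begins many of these messenger RNAs. RefSeq starts on GRCm38.p6 could be matched by symbol for 61 of the 83 genes. In the 30 bases around the start, beginning 15 bases before it and read on the sense strand only, a run of at least 8 bases that are each C or T was present for 27 of the 61, or 44.3%, against 13.9% of the 27025 symbols that had a start. A run that lies before the start, as in Rps15a, is not part of the messenger RNA from that start. Whether these starts are the ones used in muscle was not tested. Windows are shown for 2 genes with a long run and for 2 genes that were low in flight and had none in the window. The longest run of C or T is in capitals.
Rplp2, chr7:141447636-141447665, plus strand: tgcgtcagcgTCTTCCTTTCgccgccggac
Rps15a, chr7:118116133-118116162, minus strand: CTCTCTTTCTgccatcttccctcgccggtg
Rpl24, chr16:55966260-55966289, plus strand: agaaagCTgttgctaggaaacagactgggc
Rpl9, chr5:65391417-65391446, minus strand: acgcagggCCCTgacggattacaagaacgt
The log2 fold changes of genes with and without such a run in the window were close. In the gastrocnemius the medians were -0.28 over 26 tested genes with the run and -0.25 over 32 without, and in the quadriceps -0.28 and -0.34.

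Other genes of protein synthesis were looked at by lists. Of 78 mitochondrial ribosomal protein genes, which serve the separate ribosome of the mitochondrion, 61 were lower in the gastrocnemius with a median log2 fold change of -0.12 and 62 in the quadriceps with a median of -0.14. At an unadjusted p under 0.05, 14 and 16 were lower by limma, where 6.55% and 5.18% of all tested genes were. Of the 7 ribosomal proteins outside the symbol definition, 5 were lower in the gastrocnemius, and all 7 were lower in quadriceps, with -0.44 each for Rack1, a scaffold on the small subunit, and Rpl36al. Rpl22l1, a copy of Rpl22, had the lowest p of them in the gastrocnemius, with 33.2, 28.8 and 36.2 TPM on the ground and 23.2, 14.7 and 15.04 TPM in flight, a log2 fold change of -0.88 (SE 0.18, limma adjusted p = 0.126). Its quadriceps values of 48.04, 42.6 and 32.7 TPM on the ground and 30.04, 21.4 and 26.9 TPM in flight did not overlap either. Of 12 genes of an elongation list 9 were lower in each muscle, with medians of -0.09 and -0.07. This list also holds Tpt1, Gspt1 and Eef2k, which are not elongation factors themselves. Its lowest p belonged to Tpt1, with -0.35 and -0.18. Of 41 initiation factors 26 and 22 were lower, with medians of -0.06 and -0.02, and the lowest p belonged to Eif1, with -0.57 and -0.34. Of 59 genes of ribosome assembly 27 and 34 were lower, with medians of 0.03 and -0.03. Of 20 genes of the mTORC1 and MYC growth pathways 3 and 8 were lower, and Rps6kb1, the kinase of Rps6, had 0.39 and 0.19. No gene of these 6 lists was called by limma in either muscle. At an unadjusted p under 0.05 in the gastrocnemius and quadriceps, in either direction, where 15.1% and 10.8% of all tested genes stood, there were 15 and 16 of 78 mitochondrial ribosomal protein genes, 1 and 4 of 7 outside the symbol definition, 3 and 2 of 12 genes of the elongation list, 11 and 3 of 41 initiation factors, 5 and 5 of 59 assembly genes and 1 and 1 of 20 genes of the growth pathways. Assembly and growth genes lay below the share of all genes in both muscles, and initiation factors did so in the quadriceps.

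Genes of like level and length were also lower more often than all genes. Among 609 other protein-coding genes with a mean above 100 TPM the median log2 fold change was -0.06 in the gastrocnemius and -0.02 in the quadriceps, with 19.7% and 16.1% lower at an unadjusted p under 0.05. Among the 201 of them with a median transcript under 1000 bases the medians were -0.09 and -0.08, with 24.9% and 23.9%. The ribosomal protein genes, whose median transcript was 704 bases, had 49.4% and 57.0%. These sets were chosen after the values were seen, and the part of level and length in the result was not tested.

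Markers of other cell types moved in places. Of 9 tested adipocyte genes 8 were lower in the flight quadriceps, with a median log2 fold change of -1.07 and sums of 950 to 1354 TPM on the ground and 804 to 906 TPM in flight. Car3 alone held 470 to 582 TPM and 336 to 453 TPM of these sums, which are therefore largely those of a single gene. Between the muscles Car3 was lower in the quadriceps, with a log2 difference of -0.46, while 7 of the 9 adipocyte genes were higher there. Car3 thus did not follow most of its list, and these sums are not a measure of adipocytes. In the gastrocnemius 6 of 9 were lower, with a median of -0.13. All 8 tested Schwann cell genes were higher in the flight gastrocnemius, with a median of 0.33 and overlapping sums of 159 to 237 TPM and 193 to 340 TPM, and 5 of 8 were lower in the quadriceps. All 5 tested blood genes were lower in the gastrocnemius and 4 of 5 in the quadriceps, with medians of -0.42 and -0.25. The medians in the gastrocnemius and quadriceps were 0.10 and 0.19 for macrophage genes, 0.01 and -0.05 for endothelial genes, 0.12 and -0.09 for fibroblast and tendon genes, 0.19 and 0.12 for satellite cell genes and 0.01 and 0.01 for muscle fiber genes. None of these genes was called by limma in either muscle. At an unadjusted p under 0.05 there were 1 of 9 adipocyte genes, Car3, and 6 of 15 muscle fiber genes in the gastrocnemius, against 15.1% of all tested genes. In the quadriceps there were 7 of 9 adipocyte, 3 of 15 muscle fiber and 1 of 3 satellite cell genes, against 10.8%, and in both muscles 0 of the other lists. Of these muscle fiber genes 2 were lower and 4 higher in the gastrocnemius, and 2 lower and 1 higher in the quadriceps. Mb (-0.37 and -0.55) and Myh2 (-0.34 and -0.36) were the lower ones in both muscles. The muscle fiber medians near 0 thus join genes that moved both ways. The part of these cell types and of the mitochondrial messenger RNAs in the lower ribosomal protein levels was not tested.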

How the data were processed

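RNA was polyA-selected and sequenced as stranded single-end reads of 50 bases. The authors made the deposited TPM table with kallisto 0.46.0, summed per gene with tximport, on a transcript annotation that is not given in the sources used here. TPM carries no counting depth, so precision rests on the spread between mice. The authors aligned with STAR 2.7.1a to mm10 and deposited inclusion and skipping junction read counts per sample from rMATS-turbo, with the samples of a group unnamed. The submitters' processing notes also list DESeq2 1.26.0, and the columns of the authors' own fold changes and tests were not used.

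Ribosomal protein genes and lists were chosen with earlier results of these data known. Genes with over 5 TPM in at least 1 of 12 libraries were kept (10481), and log2(TPM + 1) was fitted with limma 3.58.1 in R 4.3.3 (eBayes with trend, two-sided p, Benjamini-Hochberg over all genes), within each muscle, on the mean of both muscles of a mouse, and over 12 libraries with mouse as a block for the muscle difference and the interaction. A call needed an adjusted p below 0.05 and over 1.5-fold, and because TPM was analysed, fold changes of low genes are understated by the added 1. Genes were named if called, if among the 10 smallest p of a flight comparison, if without overlap in both muscles, if at an unadjusted interaction p under 0.05, if extreme in level, spread or muscle difference, or as paralog pairs, and of other lists by the smallest p, and a few that the rule names are not reported here by name. Replicates are separate mice. The mouse block comes from the labels, and the deviations of both muscles of a mouse correlated with r of -0.12 to 0.33. Splicing ratios of inclusion to skipping reads (each plus 0.5, over effective length) were fitted with limma on events with a mean over 10 reads in both groups whose exon was neither nearly always used nor nearly always skipped in every sample, and called at an adjusted p under 0.05 and over 5 points of PSI. Look-alike genes were found by shared 31-base stretches with Python 3.11.15 in GENCODE vM21 transcripts, and the addition of their TPM was chosen after the data were seen. Both tests were checked on simulated data with planted changes larger than most of those reported here. That check does not show how often changes of the reported size would be found. Alternatives covered the pseudocount, the filter, the trend, the scaling, pseudogenes, a block for replicate number, the mouse block and each library left out.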

Additional observations from a re-analysis of the deposited data

How the results depend on the processing

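The lower level of ribosomal protein genes in flight kept its direction under every alternative run, and the calls of single genes did not keep their side of the threshold. In the gastrocnemius the median log2 fold change was -0.27, and 39 genes were lower at an unadjusted p under 0.05. The 1 called gene became 0 with no filter, without the trend, with look-alike genes added and with the replicate block. The number became 3 with all 12 libraries in 1 fit, where 32 of all genes were called. With a library left out it was 0 to 16 (16 without flight mouse M11, where 133 of all genes were called, 0 without any other). For the mean of both muscles the 1 called gene became 0 with no filter, without the trend, with look-alike genes added and with the replicate block. The number became 3 under both versions of median ratio scaling, where 32 of all genes were called. With a mouse left out it was 0 to 13 (13 without M11, where 134 of all genes were called). In the quadriceps, where 0 were called in all settings, the median of -0.28 became -0.20 with look-alike genes added. The number of genes with an unadjusted interaction p under 0.05, 8, became 4 with named pseudogenes added and 5 with look-alike genes added. It became 5 without the mouse block, and 4 to 10 with a mouse left out. The 14 genes called between the muscles became 9 under both versions of median ratio scaling, where the median of the 79 genes became 0.22. With look-alike genes added 3 were called, of which 1 was among the 14, beside 334 of 10404 genes in the whole table. With a mouse left out 13 to 19 were called, beside 317 to 362 of all genes.

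With look-alike genes added the sign turned for 8 of the 79 genes in the gastrocnemius, 4 in the quadriceps and 4 for the mean of both muscles, among them Rpl5 and Rps6 as given above and Rpl23 in the quadriceps (0.0232) and the mean of both muscles (0.0899). It also turned for the interaction of Rps6, which became -0.105 with either named pseudogenes or look-alike genes added. The cause of these shifts beyond the added TPM was not tested. The Rps24 exon difference in the gastrocnemius, 0.19 points, became -1.203 without ground replicate 1 and -0.268 without flight replicate 1, and ran from there to 1.17 with a sample left out. Of the values of single genes with a library left out, 336 kept their direction and side of the threshold, 19 lost it, 15 gained it and 2 turned sign, and under the other alternatives 520, 18, 22 and 4 did.

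The replicate numbers did not pair flight with ground mice. Deviations of samples with the same number correlated with r of -0.14, 0.11 and 0.003 in the gastrocnemius and -0.14, -0.07 and -0.18 in the quadriceps. The replicate block gave 33 genes lower at an unadjusted p under 0.05 in the gastrocnemius, 39 in the quadriceps and 48 for the mean of both, and over the whole table it took the 24 genes called in the gastrocnemius to 0, the 3 in the quadriceps to 0 and the 13 for the mean of both to 3. Over the whole table the calls in the gastrocnemius ran from 1 to 133 and those for the mean of both muscles from 0 to 134 with a library or mouse left out. The highest of each was the fit without M11. TPM keeps no depth, so a low listed level cannot be given a counting error.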
